A study of Mus musculus with 30 samples.

Results

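Gata4, Gata6, Sox7, Sox17, Foxa2, Hnf4a, Dab2, Cubn, Amn and Lrp2, a set of transcription factors and endocytic proteins used to mark primitive endoderm, were followed across 8 mouse cell lines. The 10 genes were taken by symbol from what is known of this tissue, and no measured value enters the rule, although earlier results of these data were known when it was set. All 10 were found among the 25400 genes of the count table, and all 10 passed the filter on low counts that left 16582 genes for testing. Hnf4a and Amn had the fewest counts of the set.

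The samples were neural progenitor cells (NPCs) derived from mouse embryonic stem cells (ESCs), sequenced as poly(A) RNA, with 3 libraries for each line and 24 in all. WT cells carried intact Mbd3, the gene for a subunit of the NuRD chromatin remodelling and deacetylase complex. The Mbd3 KO line lacked it, and the other lines were Mbd3 KO cells given back a biotin-tagged construct at a fixed genomic site under the CAG promoter: full-length MBD3a, MBD3ΔMBD without its methyl-CpG binding domain, full-length MBD2a, MBD2aΔGR without the glycine-arginine stretch, MBD2a with the R181C change in that domain, or MBD2t, which lacks the coiled coil. Endogenous Mbd2 was present in every line. The MBD2t libraries were triplicates of 1 clone, whereas the other lines were represented by separately derived clones. The test pools the spread over all lines, so p-values for MBD2t rest in large part on variation between clones of the other lines. The MBD2t libraries themselves show only the spread within a clone. The test still counts these 3 libraries as independent, so p-values for MBD2t are likely too small.

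Primitive endoderm is the first extraembryonic endoderm layer of the blastocyst. FGF signalling and GATA6 set it apart from the epiblast, GATA4, SOX17 and SOX7 follow, and the layer gives rise to visceral endoderm, a polarised absorptive epithelium, and to parietal endoderm, which lays down a thick basement membrane. Visceral endoderm cells take up maternal nutrients through the large receptors megalin and cubilin, and DAB2 links those receptors to the endocytic machinery. None of these genes belongs to primitive endoderm alone: FOXA2 also marks the floor plate, SOX7 and SOX17 the endothelium, GATA4 and GATA6 the heart, and megalin the neuroepithelium.

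Read totals ranged from 27993858 to 49392806 per library, with a median of 36797095, so that 3 counts correspond to between 0.0606 and 0.115 CPM (the usual depth-scaled read count, with TMM scaling). Mbd3 stood at 149 to 157 CPM in WT and at 34.2 to 73.8 CPM in Mbd3 KO. Mbd2 stood at 40.8 to 50.4 CPM in WT, 64.2 to 70.9 in Mbd3 KO, 67.0 to 87.2 in MBD2a, 253 to 325 in MBD2a R181C, 335 to 356 in MBD2t and 280, 451 and 700 in the MBD2aΔGR libraries s16, s17 and s18. In MBD2a, s13 and s14 (87.2 and 86.3 CPM) were above the Mbd3 KO parent and s15 (67.0 CPM) was within its range, so that the transcript of the construct was not evident in s15. These are RNA levels in NPCs. By Western blot in ESCs, the paper reports equal protein levels of the MBD2a and MBD2aΔGR constructs. The labelled cell type was checked against a list of neural progenitor genes, 9 of which were measured. Their summed level was 2325 to 2733 CPM in WT, 311 to 377 in Mbd3 KO, 285 to 540 in MBD2a and 383 to 404 in MBD2t, and no gene of the list was at 0 in any library.

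Library s18 of the MBD2aΔGR line stood apart from all others. It held the highest level of all 10 genes among the 24 libraries, and their summed level was 1304 CPM in s18 against 187 in s16 and 166 in s17 of the same line. The summed level was 87.6 to 117 CPM in WT. Each result that rests on s18 is given with and without it. The MBD2a libraries also differed, at 343 CPM in s13, 144 in s14 and 525 in s15. In these bulk samples, fewer cells of a type and less RNA per cell cannot be told apart.

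**Figure D1:**
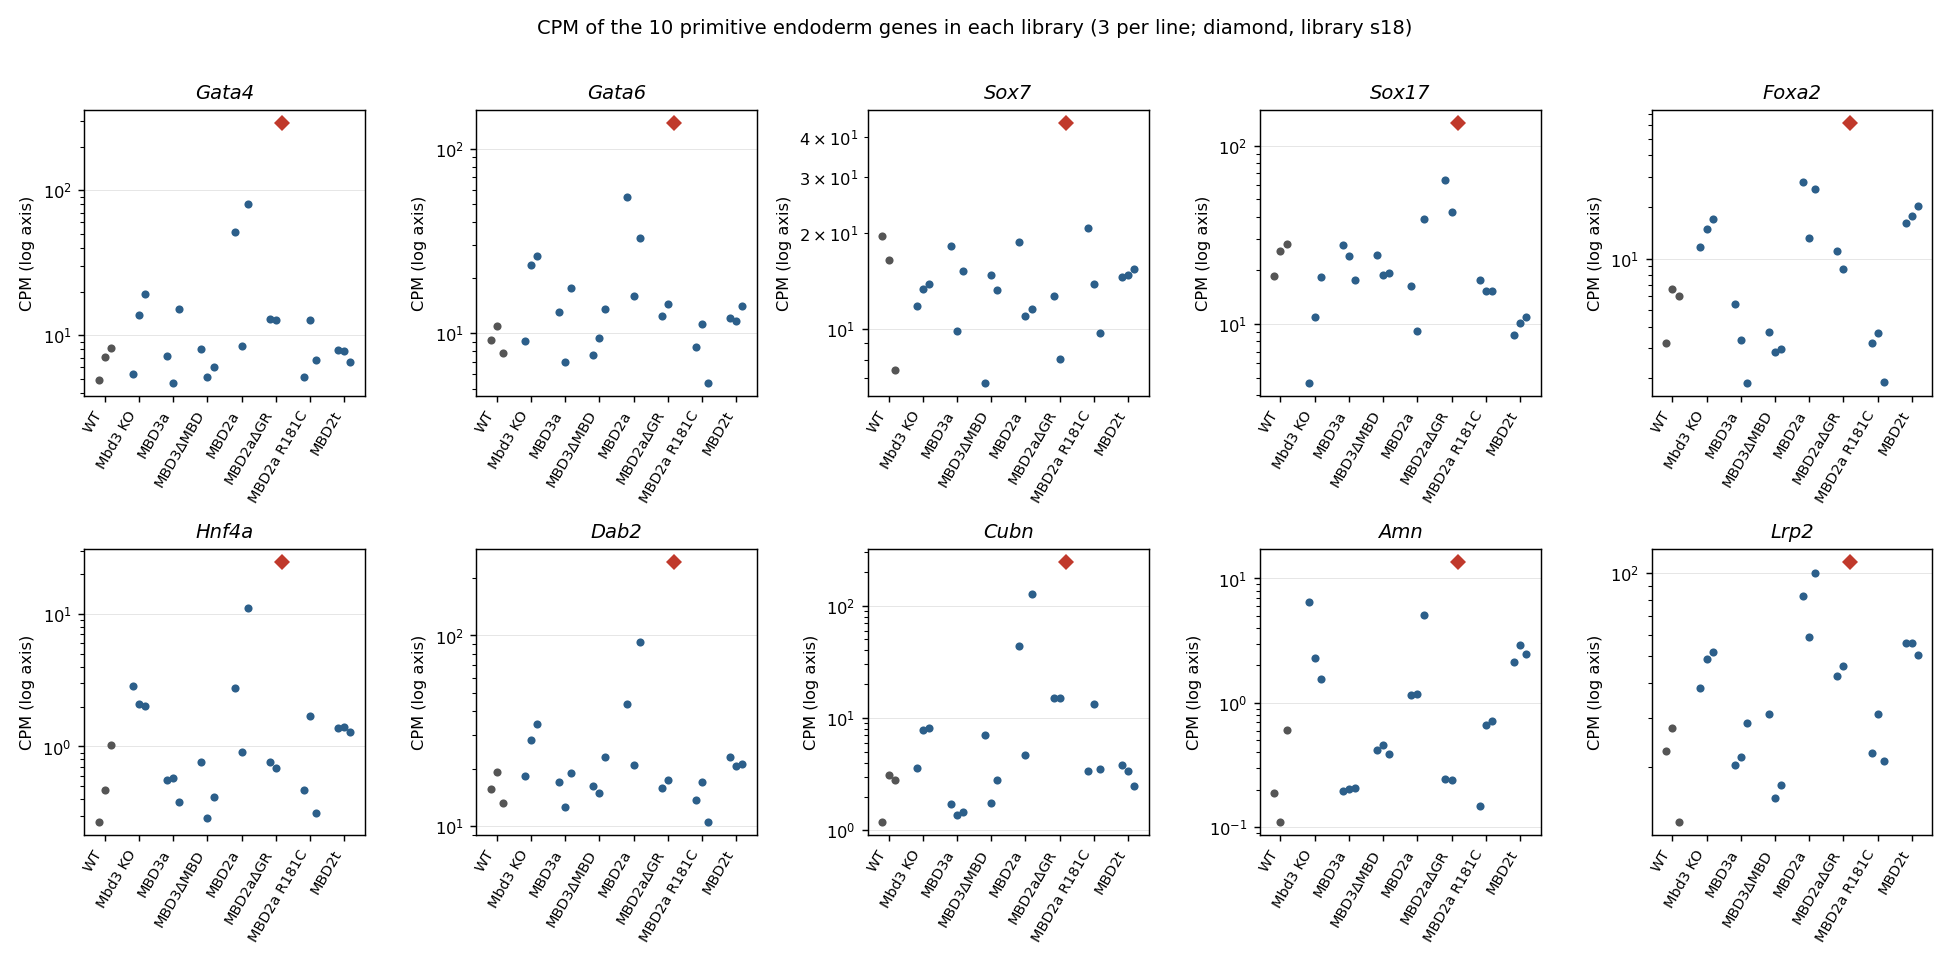
Level of each of the 10 genes in CPM (log axis) in the 3 libraries of each line, one panel per gene; grey points are WT, blue points the other lines and the red diamond library s18. The diamond is the highest point in every panel, and the MBD2a points are spread over a wide range for Gata4, Cubn and Hnf4a.

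RefSeq promoter windows of GRCm38.p6, from 250 bases before to 50 after a transcript start, were listed for 6 of the genes (Foxa2, Hnf4a, Dab2, Cubn, Amn and Lrp2; 10 windows) and were searched on both strands because the members rose together in some libraries. Words of the GATA motif (AGATAA or TGATAA) were found in 3 of the 10 windows, one each for Foxa2, Hnf4a and Dab2, against 18.6% of all 32851 windows of that length. The SOX motif AACAAT, the forkhead motif (TGTTTAC or TGTTTGC) and the HNF4 motif CAAAGTCCA were found in 0 of the 10, against 10.7%, 8.48% and 0.475% of all windows. The stretches around the words upstream of the start are shown to place them, with the GATA word in capitals, each read in the direction of its gene.
Foxa2, chr2:148045595-148045694, minus strand: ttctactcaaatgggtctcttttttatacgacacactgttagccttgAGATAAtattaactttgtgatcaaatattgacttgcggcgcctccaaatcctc
Hnf4a, chr2:163506757-163506856, plus strand: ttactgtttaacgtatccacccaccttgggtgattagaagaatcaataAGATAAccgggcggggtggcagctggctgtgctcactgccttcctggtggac
Dab2, chr15:6299563-6299662, plus strand: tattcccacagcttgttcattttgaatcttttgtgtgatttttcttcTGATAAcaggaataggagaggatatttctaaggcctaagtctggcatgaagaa
These words begin at positions -183, -52 and -179 relative to the start. The Dab2 window held 1 further word, on the other strand at position 14, which is not shown. A match is a run of letters and not evidence of binding.

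Gata4 and Gata6, the zinc finger factors at the head of the primitive endoderm programme, were low in WT NPCs. Gata4 lies on chromosome 14 (63817759 to 63890529, minus strand, mm9) and Gata6 on chromosome 18 (11052508 to 11085633, plus strand, mm9), where 58 of its exon bases overlap 1010001N08Rik on the other strand. Gata4 was at 4.88, 7.04 and 8.20 CPM in the WT libraries, at 51.3, 8.40 and 80.7 CPM in MBD2a and at 12.9, 12.8 and 291 CPM in MBD2aΔGR. The MBD2a libraries s13 and s15 were far above WT while s14 lay just above the highest WT library, and s18 stood alone in its line. In Mbd3 KO, Gata4 was at 5.43, 13.9 and 19.3 CPM, a range that overlapped WT.

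Gata6 followed the same libraries with smaller ratios. It was at 9.21, 10.9 and 7.79 CPM in WT, 54.5, 15.8 and 32.9 CPM in MBD2a, and 12.4, 14.4 and 138 CPM in MBD2aΔGR. All MBD2a and MBD2aΔGR libraries lay above the highest WT library for both GATA genes. Library s18 exceeded the mean of s16 and s17 by 22.7-fold for Gata4 and 10.3-fold for Gata6. In the 4 lines MBD3a, MBD3ΔMBD, MBD2a R181C and MBD2t, mean Gata4 ranged from 6.40 ± 1.48 (MBD3ΔMBD) to 9.05 ± 5.53 CPM (MBD3a) and mean Gata6 from 8.32 ± 2.90 (MBD2a R181C) to 12.6 ± 1.24 CPM (MBD2t; all SD, n = 3).

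Sox7 and Sox17, SOX factors of the F group, did not follow the GATA genes. Sox7 (chromosome 14, 64562511 to 64569569, plus strand, mm9) had overlapping ranges in WT and every other line, with 19.6, 16.4 and 7.43 CPM in WT and 12.7, 8.04 and 44.3 CPM in MBD2aΔGR. Sox7 was the gene with no call in any of the 15 comparisons. Outside s18, the Sox7 level stayed between 6.77 and 20.7 CPM.

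Sox17 (chromosome 1, 4481009 to 4486494, minus strand, mm9) was the member whose MBD2aΔGR libraries all lay above WT and whose Mbd3 KO and MBD2t libraries all lay below it. It was at 18.5, 25.7 and 27.95 CPM in WT, at 63.9, 42.5 and 135 CPM in MBD2aΔGR, and at 16.3, 9.07 and 38.9 CPM in MBD2a. In Mbd3 KO it was at 4.66, 10.9 and 18.4 CPM and in MBD2t at 8.69, 10.1 and 10.9 CPM, with every library below the lowest WT library. Chromosome 1 as a whole was also shifted between the libraries of Mbd3 KO and between those of MBD2a. Across 728 expressed genes of that chromosome, s04 deviated from the other libraries of its line by a median of -0.38 and s06 by 0.29 on the log2 scale in Mbd3 KO, and s13, s14 and s15 deviated by 0.20, 0.17 and -0.39 in MBD2a. Sox17 was lowest in s04 and highest in s06, as the chromosome was, but in MBD2a it was highest in s15, where the chromosome was lowest. The part of this shift in the Sox17 values was not tested.

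Foxa2, a forkhead pioneer factor of endoderm and floor plate (chromosome 2, 147868613 to 147872705, minus strand, mm9), was raised in several lines. It was at 3.22, 6.60 and 6.06 CPM in WT, 11.7, 14.9 and 17.1 CPM in Mbd3 KO, 16.2, 17.7 and 20.2 CPM in MBD2t, and 28.1, 13.3 and 25.6 CPM in MBD2a. Every library of these 3 lines lay above every WT library. In MBD2aΔGR, s16 and s17 held 11.1 and 8.64 CPM and s18 62.0 CPM, all above WT. MBD3a, MBD3ΔMBD and MBD2a R181C had means of 3.55 ± 1.78, 3.19 ± 0.488 and 2.93 ± 0.910 CPM (SD, n = 3), which overlapped WT.

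Hnf4a, a nuclear receptor that drives visceral endoderm differentiation (chromosome 2, 163332544 to 163398646, plus strand, mm9), was scarce in WT at 0.268, 0.468 and 1.02 CPM. It was at 2.86, 2.10 and 2.01 CPM in Mbd3 KO, at 2.76, 0.913 and 11.1 CPM in MBD2a, and at 0.768, 0.685 and 24.5 CPM in MBD2aΔGR. Mbd3 KO and MBD2t, at 1.36 ± 0.0571 CPM (SD, n = 3), lay wholly above WT, while s14, s16 and s17 fell inside the WT range.

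Dab2, the endocytic adaptor (chromosome 15, 6249788 to 6390712, plus strand, mm9), shares 1374 exon bases with a second gene model of the same name on the same strand. It was at 15.6, 19.3 and 13.2 CPM in WT, at 43.9, 20.9 and 92.9 CPM in MBD2a, and at 15.8, 17.4 and 242 CPM in MBD2aΔGR. Libraries s16 and s17 lay within the WT range, with a mean 1.03 times that of WT, whereas s18 was 14.6 times the mean of s16 and s17.

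Cubn encodes cubilin, the receptor for vitamin B12 bound to intrinsic factor (chromosome 2, 13197965 to 13413551, minus strand, mm9; 161 exon bases overlap Gm13270 on the other strand). Its level was 1.18, 3.08 and 2.80 CPM in WT, 43.5, 4.68 and 126 CPM in MBD2a, and 15.2, 15.0 and 244 CPM in MBD2aΔGR. This was the gene with the largest ratio between MBD2a libraries, s15 being 27.0 times s14. Libraries s16 and s17 were near each other, with a mean 6.40 times that of WT. MBD2a R181C, at 3.36, 13.3 and 3.49 CPM, also lay above WT.

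Amn encodes amnionless, which anchors cubilin in the membrane (chromosome 12, 112509322 to 112514637, plus strand, mm9). It had 7, 4 and 25 counts in the WT libraries, or 0.188, 0.110 and 0.609 CPM. Its level was 6.46, 2.28 and 1.56 CPM in Mbd3 KO, 2.14, 2.94 and 2.49 CPM in MBD2t, 1.15, 1.18 and 5.10 CPM in MBD2a, and 0.246, 0.238 and 13.5 CPM in MBD2aΔGR. Amn thus had the largest ratio of s18 to the mean of s16 and s17, 55.9-fold, but s16 and s17 held only 8 counts each. Its level in s16 and s17 lay within the WT range. Cubn lay above WT in these libraries, though it was not called without s18.

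Lrp2 encodes megalin (chromosome 2, 69262397 to 69424122, minus strand, mm9), a receptor of many ligands. It was at 22.8, 27.6 and 12.6 CPM in WT, 38.5, 48.8 and 51.9 CPM in Mbd3 KO, 55.9, 56.0 and 50.5 CPM in MBD2t, 82.7, 59.0 and 99.7 CPM in MBD2a, and 42.4, 46.2 and 109 CPM in MBD2aΔGR. All libraries of these 4 lines lay above WT. The means of MBD3a, MBD3ΔMBD and MBD2a R181C were 23.6 ± 4.53, 21.1 ± 8.48 and 24.8 ± 5.50 CPM (SD, n = 3).

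Per kilobase of exon model, the order of the genes changed between lines. In WT, Sox17 had the highest level of the set at 7.63 ± 1.56 CPM per kb, followed by Sox7 at 4.39 ± 1.92, and Hnf4a had the lowest at 0.117 ± 0.0779. In MBD2a, Gata4 was highest at 11.97 ± 9.29 CPM per kb and Gata6 next at 10.8 ± 6.07, with a spread that covered most of the set. Cubn rose from 0.199 ± 0.0868 in WT to 4.92 ± 5.26 CPM per kb in MBD2a (all SD, n = 3).

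Ordering the lines by mean CPM, MBD2aΔGR was highest for 9 genes and MBD2a for Lrp2. Without s18, MBD2a was highest for 7 genes, MBD2aΔGR for Sox17, MBD2t for Sox7 and Mbd3 KO for Amn. With all libraries, neighbouring lines in that order seldom differed beyond their spread. Over the 10 genes, 6 of 70 neighbouring pairs had libraries that did not overlap. They were MBD2aΔGR above WT and MBD3ΔMBD above MBD2a R181C for Sox17, Mbd3 KO above WT for Foxa2, Mbd3 KO above MBD2t for Hnf4a, MBD2a above MBD2a R181C for Amn, and Mbd3 KO above MBD2a R181C for Lrp2. The same share over all genes was not computed, so these pairs are a description and no result about the members is drawn from them.

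Loss of MBD3 was followed by a higher level of 3 of the 10 genes: Foxa2, by a log2 fold change of 1.46 ± 0.55 (SE; adjusted p = 0.029), Amn, by 3.42 ± 1.23 (adjusted p = 0.0222), and Lrp2, by 1.15 ± 0.34 (adjusted p = 0.00755). A gene was called when edgeR's quasi-likelihood test over all 24 libraries gave an adjusted p (Benjamini-Hochberg) below 0.05 and the log2 fold change exceeded 1 in size. Of all genes tested, 33.8% were called in this comparison and 19.6% were called higher, so that 3 of 10 is near the background. Sox17 had a log2 fold change of -1.09 ± 0.47 (adjusted p = 0.0518), and Gata4, Gata6, Hnf4a, Dab2 and Cubn had log2 fold changes between 0.75 and 1.95 without passing the test. With s18 left out of the shared fit, whose error estimate it raises, 6 were called (Gata6, Foxa2, Hnf4a, Amn and Lrp2 higher, Sox17 lower), against 34.5% of all genes.

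The calls for Mbd3 KO depended on single libraries. Foxa2 was no longer called without s01, s05 or s06, Amn without s01, s02 or s04, and Lrp2 without s03. All comparisons with WT share its 3 libraries.

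MBD2t, which adds MBD2 without the coiled coil, differed from WT in 4 members. Foxa2 (1.77 ± 0.55, adjusted p = 0.0098), Amn (2.99 ± 1.26, adjusted p = 0.0471) and Lrp2 (1.37 ± 0.34, adjusted p = 0.00216) were higher than in WT, and Sox17 was lower (-1.28 ± 0.47, adjusted p = 0.0248). Of all genes tested, 33.4% were called in this comparison, so that 4 of 10 is near the background. The MBD2t libraries come from 1 clone but are counted as independent, so these p-values are likely too small. Sox17 lost the call without s02, s03, s22 or s23, and Amn when any one of the WT or MBD2t libraries was left out. Against Mbd3 KO, edgeR called 0 members in MBD2t, with 0 at an unadjusted p under 0.05 and 0 by DESeq2. In that comparison 0.0241% of all genes were called.

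The libraries labelled MBD2a had the most members called against WT among the lines that do not include s18. Compared with WT, 7 of the 10 genes were called, all higher, where 30.6% of all genes were called and 16.9% were called higher. Cubn rose by 4.62 ± 1.12 on the log2 scale (adjusted p = 0.00199), Hnf4a by 3.06 ± 1.15 (adjusted p = 0.0307), Gata4 by 2.80 ± 0.95 (adjusted p = 0.0181) and Foxa2 by 2.08 ± 0.55 (adjusted p = 0.00391). Lrp2 rose by 1.94 ± 0.35 (adjusted p = 0.000155), Gata6 by 1.89 ± 0.69 (adjusted p = 0.0267) and Dab2 by 1.72 ± 0.72 (adjusted p = 0.0491).

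Within this line the rise was uneven. Foxa2, Cubn and Lrp2 kept their calls under all 14 alternatives run, and Dab2 kept its call under 7. Leaving out s15, the library whose Mbd2 level lay within the Mbd3 KO range, ended the calls of Gata4, Hnf4a and Dab2, which left 4, and leaving out the WT library s01 left 3. With s18 out of the shared fit, 8 members were called (Amn was added), against 31.3% of all genes. Sox7 and Sox17 had log2 fold changes of -0.07 ± 0.48 and -0.16 ± 0.46.

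**Figure D2:**
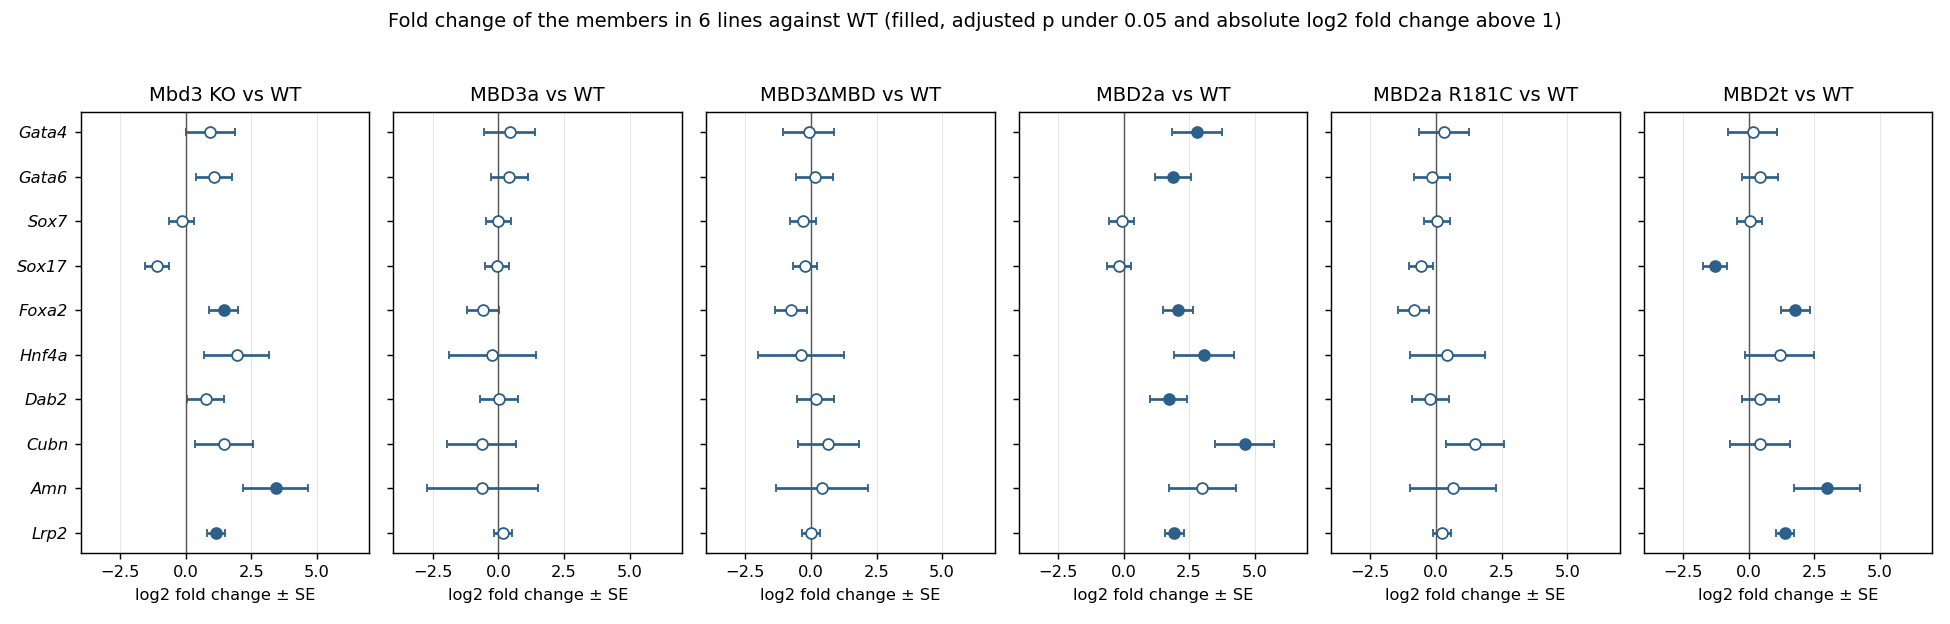
Log2 fold change with its SE for each gene in 6 lines against WT, from the fit of all 24 libraries; filled points were called (adjusted p below 0.05, log2 fold change over 1 in size). The MBD2a panel holds 7 filled points and the panels of MBD3a, MBD3ΔMBD and MBD2a R181C hold 0.

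Compared with Mbd3 KO rather than with WT, edgeR called 0 members in the libraries labelled MBD2a, where 5.25% of all genes were called. Cubn and Lrp2 had an unadjusted p under 0.05, and DESeq2 called 1 member. Cubn had a log2 fold change of 3.16 ± 1.02 (adjusted p = 0.059) and Gata4 of 1.86 ± 0.91 (adjusted p = 0.233). Both were called with s18 out of the shared fit, with adjusted p of 0.0108 and 0.0403, against 6.37% of all genes.

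MBD3a, MBD3ΔMBD and MBD2a R181C showed no detectable difference from WT at the members. edgeR called 0 of the 10 in each of these lines against WT, with 0 at an unadjusted p under 0.05 and 0 by DESeq2. Of all genes, 0% were called for MBD3a, 0.0181% for MBD3ΔMBD and 0.0181% for MBD2a R181C. All 10 members overlapped WT in MBD3a and MBD3ΔMBD, and 8 did so in MBD2a R181C, where Cubn lay above WT (1.495 ± 1.10, adjusted p = 0.999) and Sox17 below it (-0.58 ± 0.46, adjusted p = 0.999). The share of all genes that overlap WT was not computed, so these overlap counts are only a description. The standard errors reached 2.12 for Amn (MBD3a), and 1.27 with s18 out of the shared fit, so that several-fold changes of the scarce genes could go unseen.

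Against Mbd3 KO, the same 3 lines were lower at Foxa2 and Amn, which were also called higher in the knockout than in WT. Foxa2 was lower by a log2 fold change of -2.03 ± 0.58 in MBD3a (adjusted p = 0.00615), -2.20 ± 0.59 in MBD3ΔMBD (adjusted p = 0.00311) and -2.31 ± 0.58 in MBD2a R181C (adjusted p = 0.00238), and kept its call in all 14 alternatives of each comparison. Amn was lower in all 3, by -4.04 ± 1.43, -2.99 ± 1.20 and -2.78 ± 1.13 (adjusted p = 0.0211, 0.0368 and 0.0419), but lost its call in each comparison without s04 and without any one library of the line compared (s07 to s09, s10 to s12, s19 to s21). Lrp2 was called in MBD3ΔMBD (-1.14 ± 0.34, adjusted p = 0.00744; lost without s11) and fell just short of the fold threshold in MBD3a (-0.98 ± 0.34) and MBD2a R181C (-0.91 ± 0.34). In all, 2 members were called in MBD3a, 3 in MBD3ΔMBD and 2 in MBD2a R181C, where 32.4%, 35.9% and 31.1% of all genes were called. None of these counts is above the share of all genes. For MBD3a, 4 were called with s18 out of the shared fit (33.1% of all genes), with Hnf4a lower and Sox17 higher added. These comparisons share the Mbd3 KO libraries with the test against WT that called Foxa2, Amn and Lrp2, so they are not independent of it.

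The R181C line was set directly against the libraries labelled MBD2a, whose Mbd2 level (67.0 to 87.2 CPM) was below that of the mutant (253 to 325 CPM). The mutant was lower for 6 members, Foxa2 (-2.93 ± 0.58, adjusted p = 0.000487), Lrp2 (-1.70 ± 0.35, adjusted p = 0.000563), Cubn (-3.13 ± 1.02, adjusted p = 0.0154), Gata6 (-2.05 ± 0.70, adjusted p = 0.02), Gata4 (-2.51 ± 0.94, adjusted p = 0.0319) and Dab2 (-1.93 ± 0.72, adjusted p = 0.0322), where 27.3% of all genes were called. Foxa2 and Lrp2 kept their calls under all 14 alternatives. Leaving out s15 left 3 calls, and leaving out s19 or s21 left 2. Hnf4a had a log2 fold change of -2.63 ± 1.09 and an adjusted p of 0.051. Sox7 and Sox17 differed by 0.11 ± 0.48 and -0.42 ± 0.46.

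In MBD2aΔGR, 9 of the 10 genes were called higher than in WT, with Sox7 the exception, where 5.16% of all genes were called and 2.69% were called higher. The log2 fold changes ran from 1.65 ± 0.35 for Lrp2 (adjusted p = 0.012) to 5.28 ± 1.15 for Cubn (adjusted p = 0.0145). Gata4 rose by 3.98 ± 0.99 (adjusted p = 0.0234) and Sox17 by 1.74 ± 0.46 (adjusted p = 0.0286). Without s18, edgeR called 0 of the 10 members, where 0.722% of all genes were called. Cubn, Lrp2, Sox17 and Foxa2 were then at an unadjusted p under 0.05. DESeq2 called 9 with s18 and was not run without it. With s18 kept, leaving out the WT library s01 or s02 left 1 call, Lrp2, and leaving out s03 left 5. Fitting only MBD2aΔGR and WT gave 0.

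With s16 and s17 alone, the members differed in how far they lay from WT. Cubn (2.67 ± 0.89), Sox17 (1.14 ± 0.44), Lrp2 (1.08 ± 0.30), Gata4 (0.94 ± 0.66) and Foxa2 (0.89 ± 0.36) had log2 fold changes above 0.8, with adjusted p from 0.107 to 0.564. Gata6 (0.53 ± 0.47), Hnf4a (0.28 ± 1.06), Dab2 (0.05 ± 0.41), Amn (-0.36 ± 1.34) and Sox7 (-0.48 ± 0.40) were nearer to WT. The median of the 10 was 2.54 with s18 and 0.71 without it, against -0.01 and -0.02 over all genes.

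**Figure D3:**
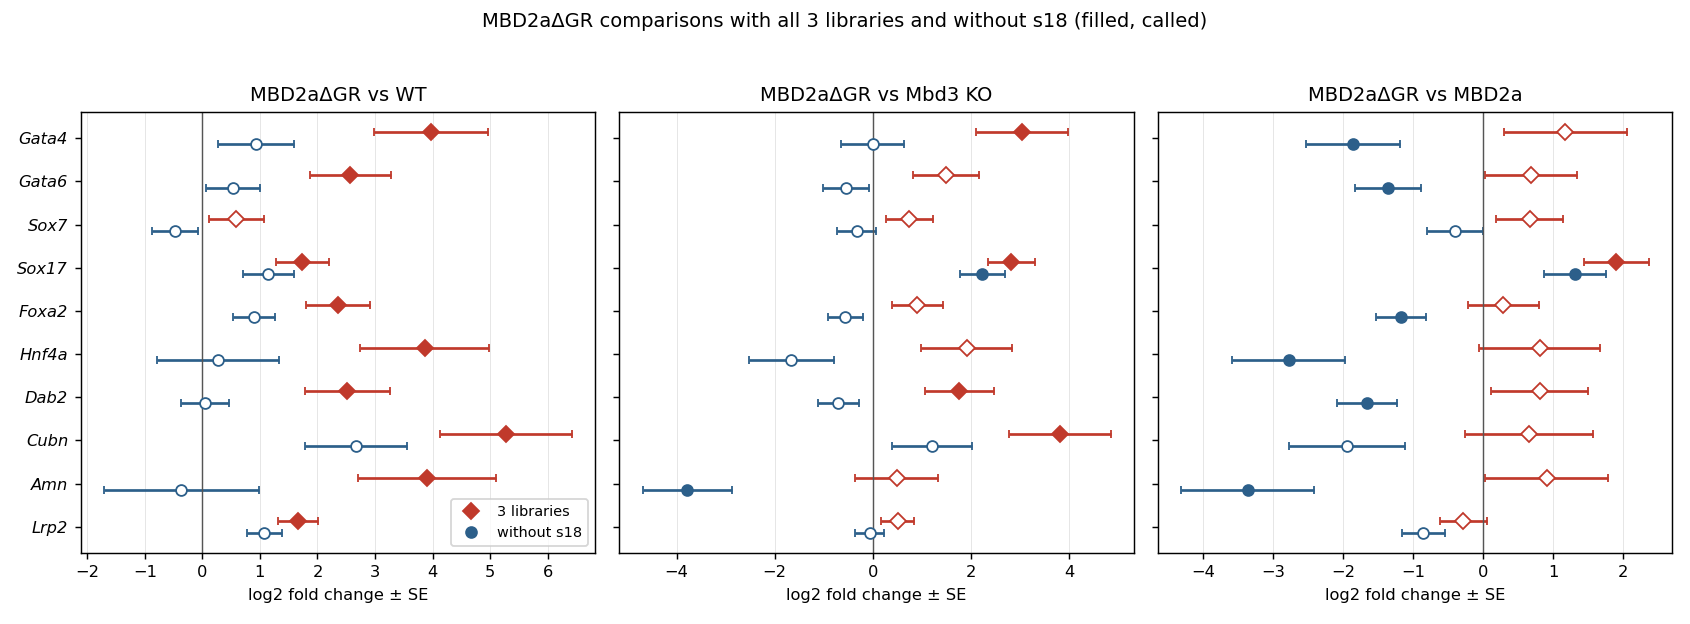
Log2 fold change with its SE of MBD2aΔGR against WT, Mbd3 KO and MBD2a, with all 3 libraries (red diamonds) and without s18 (blue circles); filled symbols were called. Every diamond lies to the right of its circle, and in the MBD2a panel 6 filled circles lie left of 0 and 1, Sox17, lies right of it.

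Against Mbd3 KO, 4 members were called higher in MBD2aΔGR (Sox17, Gata4, Cubn and Dab2), where 25.2% of all genes were called. Without s18, 8 of the 10 changed sign and 2 were called, Sox17 higher (2.23 ± 0.46, adjusted p = 0.00056) and Amn lower (-3.78 ± 0.91, adjusted p = 0.00217), against 28.5% of all genes. Sox17 kept this call under all 13 alternatives.

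The glycine-arginine stretch was addressed by setting MBD2aΔGR against the libraries labelled MBD2a, which again had the lower Mbd2 RNA level. With all libraries, 1 member was called, Sox17 (1.90 ± 0.47, adjusted p = 0.00405), where 18.6% of all genes were called. Without s18, 7 were called, against 22.9% of all genes. Sox17 remained higher (1.31 ± 0.45, adjusted p = 0.0255), and Amn (-3.37 ± 0.95), Hnf4a (-2.78 ± 0.81), Gata4 (-1.86 ± 0.67), Dab2 (-1.66 ± 0.43), Gata6 (-1.36 ± 0.48) and Foxa2 (-1.18 ± 0.36) were lower (adjusted p from 0.00508 to 0.0323). Cubn, at 0.65 with s18, was at -1.95 ± 0.83 without it (adjusted p = 0.0679). In all, 8 of the 10 genes changed sign with this library, and 6 of them were called without it. The Sox17 call was lost when only these 2 lines were fitted.

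Across all pairs of members the median Pearson correlation of log2 CPM was 0.69 over 24 libraries and 0.59 over the 23 without s18, given as a description since libraries of a line are not independent. Sox7 and Sox17 were the least like the others, with median correlations of 0.34 and 0.25, and 0.00 and -0.17 without s18. The lowest pair was Sox17 with Amn, at -0.58 without s18. The genes outside the set with the pattern most like its scaled mean were Col4a1 (0.98), Col4a2 (0.97), Tent5c (0.96), Retreg1 (0.96) and Lrpap1 (0.96). Without s18 they were Col4a1 (0.95), Tent5c (0.93), Col4a2 (0.93), B4galnt2 (0.92) and Lamb1 (0.91). Spearman correlation over 24 libraries gave another order, led by Lamb1 (0.94), Pdxdc1 (0.94), Crtc3 (0.94), Atp10d (0.93) and Lamc1 (0.93). Col4a1, Col4a2 and Lamb1 encode chains of basement membrane collagen and laminin, and Lrpap1 the chaperone of megalin.

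The related lists are read against the share of all genes called, which was 33.8% in Mbd3 KO, 30.6% in MBD2a, 33.4% in MBD2t, 5.16% in MBD2aΔGR and 0.722% there without s18. Parietal endoderm genes, among them genes for the basement membrane, come first. Of 15 genes, all measured, 8 were called higher in MBD2aΔGR, and 7 higher and 1 lower in Mbd3 KO, 6 higher in MBD2a, and 5 higher and 1 lower in MBD2t. The list summed to 1569 to 1946 CPM in WT, 2460 and 2227 CPM in s16 and s17 and 30599 CPM in s18. Col4a1 was at 672 and 491 CPM in s16 and s17 and 10056 CPM in s18, against 267 to 376 in WT, and Lamb1 was at 137, 178 and 2214 CPM. In MBD2a, Col4a1 was at 1614, 286 and 2266 CPM, high in s13 and s15 as the GATA genes were. Without s18, 0 of the 15 were called higher and 1, Snai1, a repressor of epithelial genes, lower (-1.85 ± 0.41, adjusted p = 0.0402).

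Secreted and absorptive products of visceral endoderm followed. Of 18 tested genes of 20 listed, 14 were called higher in MBD2aΔGR, 9 in MBD2a and 5 each in Mbd3 KO and MBD2t, and 0 were called without s18. The counts in Mbd3 KO and MBD2t are not above the share of all genes. The apolipoprotein gene Apob was at 1.81, 1.04 and 108 CPM in MBD2aΔGR and 5.15, 1.502 and 56.1 CPM in MBD2a, and at most 0.755 CPM in WT. Apoa1 (5.52 ± 1.56), the fetal plasma protein gene Afp (5.36 ± 1.51) and the thyroxine carrier gene Ttr (5.27 ± 1.36) were likewise called in MBD2aΔGR, with adjusted p of 0.0366, 0.0366 and 0.0264. In Mbd3 KO the largest changes were in the transferrin gene Trf (4.61 ± 0.56, adjusted p = 2.31e-06), the retinol carrier gene Rbp4 (3.60 ± 1.14, adjusted p = 0.0109) and the microvillus gene Vil1 (3.20 ± 0.75, adjusted p = 0.00119). Trf and Rbp4 were also called higher in MBD2aΔGR (1.95, adjusted p = 0.0437, and 4.93, adjusted p = 0.0212), though not without s18.

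Partners and ligands of the endocytic receptors were called in part. Of 14 genes, 5 were higher in MBD2aΔGR (0 without s18), among them the protease gene Lgmn (2.55 ± 0.66, adjusted p = 0.0264) and Lrpap1 (1.72 ± 0.49, adjusted p = 0.0368). In MBD2a, 6 were higher and 3 lower, in Mbd3 KO 3 and 1, and in MBD2t 3 and 2, the last pair of lines being near the share of all genes. The lipoprotein receptor gene Vldlr was the lower gene with the largest change in Mbd3 KO (-2.29 ± 0.40, adjusted p = 7.71e-05), MBD2a (-2.04 ± 0.39, adjusted p = 0.000288) and MBD2t (-2.99 ± 0.41, adjusted p = 7.32e-06).

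Other endoderm transcription factors, 19 tested of 20, included called genes in 4 lines. In Mbd3 KO 9 were higher and 1 lower, in MBD2a 11 and 3, in MBD2t 12 and 1, and in MBD2aΔGR 3 and 1. The list is not specific to endoderm. Klf5, which the paper lists as a pluripotency gene, was called higher in Mbd3 KO (2.04 ± 0.45, adjusted p = 0.000798) and MBD2a (1.83 ± 0.45, adjusted p = 0.00231). How far these counts go with the pluripotent cell genes was not tested. Eomes, a T-box factor of early endoderm and trophoblast, rose in Mbd3 KO (4.22 ± 0.69, adjusted p = 4.64e-05), MBD2a (3.55 ± 0.71, adjusted p = 0.000379) and MBD2t (4.35 ± 0.69, adjusted p = 3.25e-05), and Lhx1, which is also a neural factor, fell in all 3. In MBD2aΔGR the higher genes included Cited1 (2.66 ± 0.70, adjusted p = 0.027) and Sall4 (1.37 ± 0.42, adjusted p = 0.0483), and without s18 the count was 1, Sox18 lower. Sox18, the remaining F-group SOX gene, was lower in MBD2aΔGR by -2.90 ± 0.43 (adjusted p = 0.00149) and without s18 by -2.44 ± 0.43 (adjusted p = 0.0123), opposite in sign to Sox17.

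Signals of primitive endoderm specification were examined next. Of 13 tested genes, 0 were called in MBD2aΔGR with or without s18, and 4 were higher in Mbd3 KO, 4 in MBD2a, and 4 higher and 1 lower in MBD2t, all near the share of all genes in those lines. Pdgfa, whose receptor marks primitive endoderm, was higher in Mbd3 KO (2.61 ± 0.30, adjusted p = 1.3e-06), MBD2a (2.12 ± 0.30, adjusted p = 1.53e-05) and MBD2t (2.44 ± 0.30, adjusted p = 2.47e-06). Epithelial polarity genes were called higher for 9 of 11 in each of those 3 lines, with Cdh1 at 2.68 ± 0.39, 2.56 ± 0.39 and 2.75 ± 0.39 (adjusted p of 1.32e-05, 3.21e-05 and 1.06e-05). In MBD2aΔGR, 1 of 11 was called, Crb3 (1.09 ± 0.33, adjusted p = 0.0448), and without s18 the count was 0. In MBD3a, MBD3ΔMBD and MBD2a R181C, 0 genes of any of these 6 lists were called against WT.

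**Figure D4:**
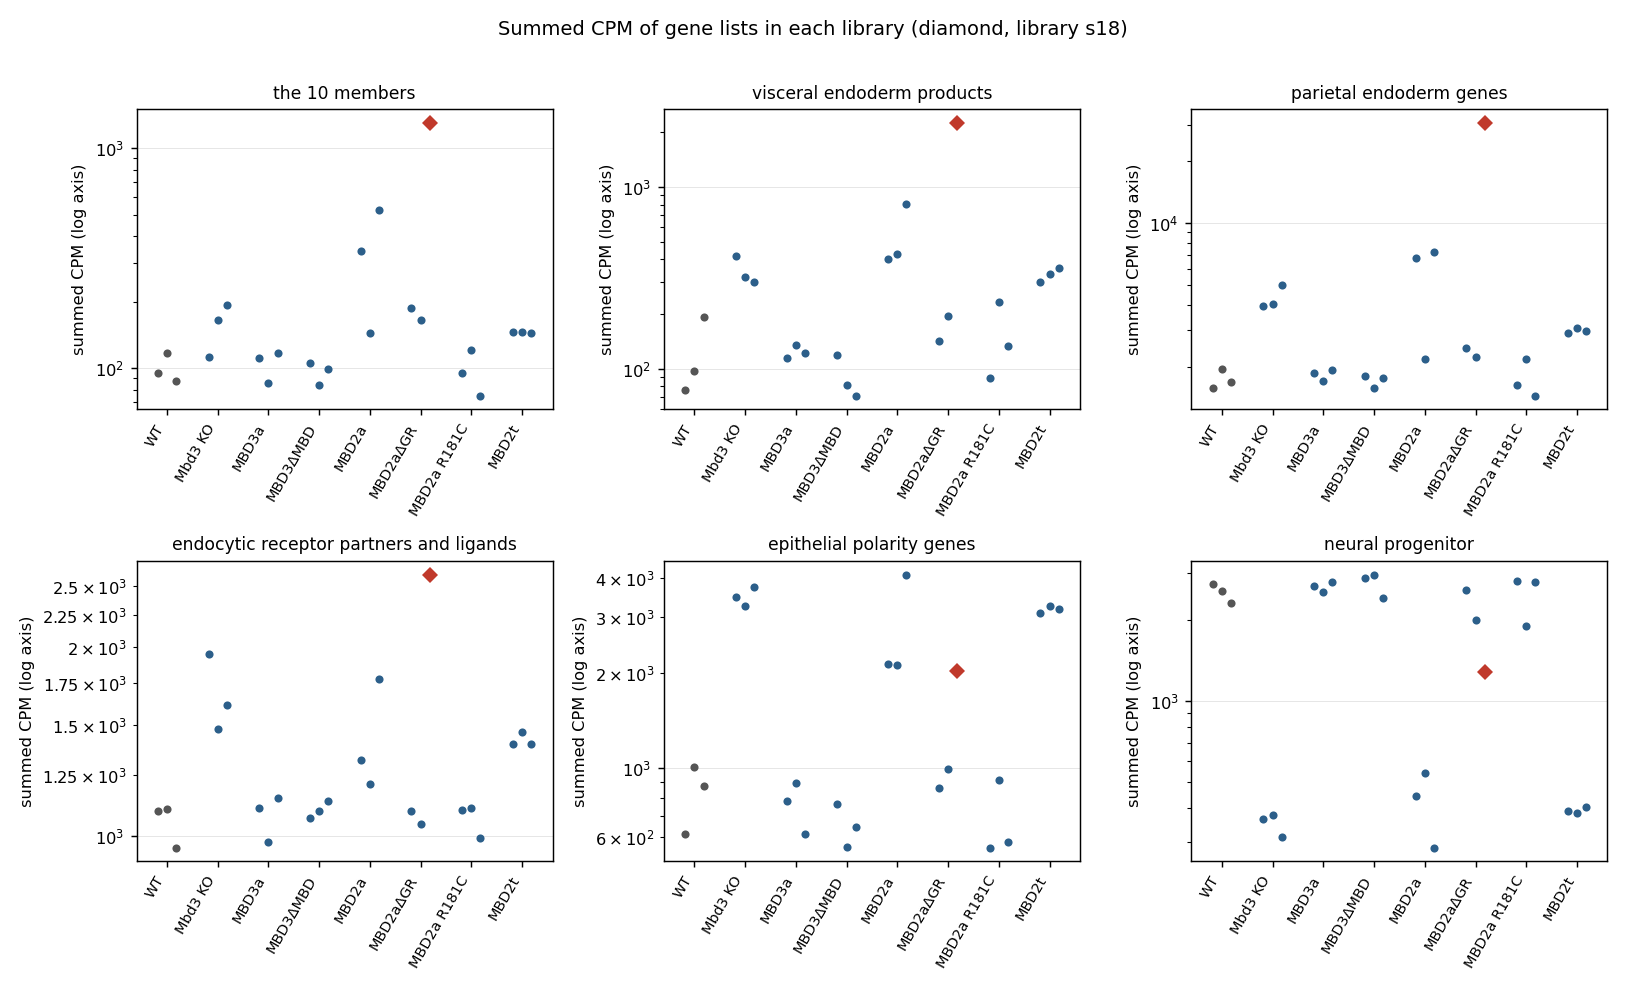
Summed CPM (log axis) of the 10 genes, of 4 related lists and of the neural progenitor list in the 3 libraries of each line; grey points are WT, blue points the other lines and the red diamond library s18. The diamond is at 30599 CPM for the parietal endoderm list, and the neural progenitor list is low in Mbd3 KO, MBD2a and MBD2t and at 1284 CPM in s18.

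Markers of other cell types moved with some of these results. Counts of called markers are read against the same shares of all genes. These were 33.8% in Mbd3 KO, 30.6% in MBD2a, 33.4% in MBD2t, 5.16% in MBD2aΔGR and 0.722% there without s18. With so few genes in a list, a small excess over the share is not read as a result about a cell type. Neural progenitor genes were called lower for 9 of 9 in Mbd3 KO, 8 in MBD2a, 8 in MBD2t and 1 in MBD2aΔGR (0 without s18), where they summed to 2598, 2003 and 1284 CPM in s16, s17 and s18. Pluripotent cell genes were called higher for 8 of 8 in Mbd3 KO, 7 in MBD2a, 8 in MBD2t and 1 in MBD2aΔGR (0 without s18), and summed to 22.7 to 169 CPM in WT, 315 to 1003 in Mbd3 KO, 343 to 682 in MBD2a, 545 to 692 in MBD2t and 58.2 to 369 in MBD2aΔGR. Trophoblast genes were called higher for 8 of 8 in Mbd3 KO and MBD2t and 4 in MBD2a, with 683 to 917, 507 to 608 and 86.6 to 543 CPM against 20.5 to 54.8 in WT, and 0 were called in MBD2aΔGR, at 13.8 to 38.8 CPM.

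Lists for cell types that some of the members also mark behaved otherwise, and they contain none of the members themselves. Endothelial genes, for which Sox7 and Sox17 also serve as markers, were called lower for 6 of 8 in MBD2aΔGR and for 4 of 8 without s18, and summed to 71.9 to 90.4 CPM in WT, 16.6 to 26.1 in MBD2aΔGR and 31.3 to 39.0 in MBD2a, where 5 were lower and 1 higher. In Mbd3 KO and MBD2t they summed to 147 to 262 and 183 to 196 CPM, with 3 and 4 called higher, the count in Mbd3 KO being near the share of all genes. Cardiac mesoderm genes summed to 9.59 to 14.1 CPM in WT, 102 to 139 in Mbd3 KO, 56.0 to 69.1 in MBD2t, 13.96 to 36.5 in MBD2a and 4.67 to 10.4 in MBD2aΔGR. Of 8, 4 were called higher in Mbd3 KO, 4 higher and 1 lower in MBD2t, 2 higher and 1 lower in MBD2a, and 1 lower in MBD2aΔGR (0 without s18).

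Floor plate genes, a context for Foxa2, summed to 122 to 241 CPM in WT, 124 to 240 in MBD2aΔGR, 48.3 to 88.0 in MBD2a, 50.0 to 91.1 in Mbd3 KO and 73.7 to 84.6 in MBD2t. Of 9, 4 were called higher and 3 lower in Mbd3 KO, 1 and 3 in MBD2a, 2 and 3 in MBD2t, and 1 and 0 in MBD2aΔGR (0 without s18). Definitive endoderm and gut genes summed to 35.1 to 76.6 CPM in MBD2aΔGR and 65.2 to 71.5 in WT, and s18 had the lowest sum of them. Of 6 tested, 3 were called higher and 1 lower in Mbd3 KO, 2 and 1 in MBD2a, 4 and 1 in MBD2t, and 1 and 0 in MBD2aΔGR (0 without s18).

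Haematopoietic genes were at 4.30 to 10.3 CPM in MBD2aΔGR and 16.3 to 22.96 in WT, with Ptprc at 0 in 18 libraries. Of 7 tested, 3 were called higher in Mbd3 KO and 3 in MBD2t, 1 higher and 1 lower in MBD2a, and 1 lower in MBD2aΔGR with or without s18. The counts in Mbd3 KO, MBD2t and MBD2a are near the share of all genes. No endothelial, cardiac or pluripotent cell marker was at 0 in any library. Against WT, 0 genes of these 8 lists were called in MBD3a, MBD3ΔMBD or MBD2a R181C. The part of these cell type markers, and of the Mbd2 level that was highest in s18, in the members' values was not tested.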

How the data were processed

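Poly(A) RNA was sequenced in 24 NPC libraries, 3 per line. Per the labels and the study's methods, the authors trimmed reads with Trim Galore, aligned them with STAR to mm9 and deposited raw counts per gene from QuasR; the counting's strand setting was not given in the sources used here. Library names s01 to s24 are those of the deposited count table, which carries no replicate numbers. Its column for the R181C line names the change with another residue number and was assigned to that line as the only MBD2a point mutant.

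Counts were filtered by filterByExpr on the lines, scaled by TMM and fitted over all 24 libraries with edgeR 4.0.16 (R 4.3.3; quasi-likelihood, legacy option off); log2 CPM used a prior count of 1. Each SE of a log2 fold change was derived as its size divided by the square root of the quasi-likelihood F statistic. DESeq2 1.42.0 and other settings were alternatives. Named were all 10 members, of each related list at most 4 called genes with the largest fold change (mean log2 CPM 0 or higher), and the 5 genes with the most similar pattern. Pdgfa, Cdh1 and Snai1 fall under this rule. Ptprc was named after its counts were seen, and Klf5 because the paper lists it as a pluripotency gene. The members and lists were chosen with earlier results of these data known. The scripts were tested on simulated data. Replicate libraries differed by more than sampling noise in every pair. ChIP samples were not analysed here. Some genes that the naming rule covers are not reported here by name.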

Additional observations from a re-analysis of the deposited data

How the results depend on the processing

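No paired analysis was possible because the columns of the count table carry no replicate numbers. Of 2068 alternative fits of single members, 1888 kept their side of the threshold (70 of them with the other sign, uncalled in both fits), 110 lost a call, 60 gained one and 10 reversed; some alternatives (s18 out of the shared fit, and the legacy quasi-likelihood test) were chosen after seeing the data. The 10 reversals came without s18: Amn at -0.36 in MBD2aΔGR against WT; Gata4 at -0.0021, Dab2 at -0.70 and Amn at -3.78 against Mbd3 KO; and Gata4 at -1.86, Gata6 at -1.36, Foxa2 at -1.18, Hnf4a at -2.78, Dab2 at -1.66 and Amn at -3.37 against MBD2a.

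Fitting only the 2 lines compared changed the number of called members from 3 to 5 in Mbd3 KO against WT, from 9 to 0 in MBD2aΔGR against WT (Amn gave no value there), and, against Mbd3 KO, from 2 to 5 in MBD3a, from 2 to 4 in MBD2a R181C and from 4 to 1 in MBD2aΔGR, and from 1 to 0 in MBD2aΔGR against MBD2a. Keeping s18 out of the shared fit gave 6 in Mbd3 KO against WT and, against Mbd3 KO, 4 in MBD3a and 2 in MBD2a. DESeq2 gave 5 in MBD3a and 1 in MBD2a against Mbd3 KO. Leaving out 1 library at a time gave, against WT, 3 to 8 called members in MBD2a (3 without s01, 4 without s15), 0 to 9 in MBD2aΔGR (0 without s18, 1 without s01 or s02, 5 without s03) and 2 to 3 in MBD2t (2 without s02, s03, s22 or s23). Against Mbd3 KO it gave 1 to 3 in MBD3a (1 without s07 or s08), 1 to 4 in MBD3ΔMBD (1 without s11), 0 to 1 in MBD2a (1 without s14), 2 to 7 in MBD2aΔGR (2 without s04 or s18, 7 without s17) and 1 to 2 in MBD2a R181C (1 without s19 or s21). Against MBD2a it gave 1 to 7 in MBD2aΔGR (7 without s18) and 2 to 7 in MBD2a R181C (3 without s15, 2 without s19 or s21). The highest log2 fold changes over the same omissions, for the members that reversed, were 4.958 for Amn in MBD2aΔGR against WT; 3.493 for Gata4, 2.195 for Dab2 and 1.294 for Amn against Mbd3 KO; and 1.795 for Gata4, 1.153 for Gata6, 0.6525 for Foxa2, 2.22 for Hnf4a, 1.48 for Dab2 and 2.002 for Amn against MBD2a. The cause was not tested. Amn and Hnf4a had the fewest counts, and their standard errors in MBD3a against WT fell from 2.12 to 1.27 and from 1.66 to 1.04 with s18 out of the shared fit.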
